A study of Mus musculus with 16 samples.

Results

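Autophagy delivers cytoplasm and damaged organelles to lysosomes, and the kinase mTOR holds it back while nutrients and growth factors are plentiful. The 42 genes described here were listed by name and cover the initiation kinase complex, the class III phosphatidylinositol 3-kinase (PI3-kinase) complex, the proteins that supply membrane, the 2 conjugation systems with the ATG4 proteases, the ATG8 family, cargo receptors, mTOR with its partners and brakes, and the catalytic subunits of AMPK. Their messenger RNAs were examined for N6-methyladenosine (m6A), a methyl mark on adenosine that is enriched in long internal exons and around stop codons and that is bound by reader proteins. All 42 were found in the annotation, among 21770 protein-coding genes, and 37 held an m6A peak in at least 1 library, as did 11436 protein-coding genes.

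The data were the m6A peak lists of 8 immunoprecipitated (IP) libraries from cerebral cortical peri-infarct tissue of mice, with 2 libraries per group. MCAO/R mice had the middle cerebral artery closed by a nylon filament for 2 h and were then reperfused for 0 h (MCAO/R-0 h), 6 h (MCAO/R-6 h) or 24 h (MCAO/R-24 h), named by their time from here on, while Sham mice had the surgery without occlusion. The mice were male C57BL/6J, 6 to 8 weeks old, with 6 per surgery group. The labels do not say whether the 2 libraries of a group came from different animals, so the spread between them may be technical. The tissue is a mixture of cells, so fewer cells of a type and less RNA per cell cannot be told apart, and the abundance of each transcript is unknown, as the input libraries were not used here. The lists held 18775 and 20152 peaks in Sham, 19837 and 24078 at 0 h, 22205 and 23200 at 6 h and 19072 and 22245 at 24 h (replicate 1 and then 2, the order used throughout). No 2 lists were identical. Among cortical markers, the excitatory neuron genes Tbr1 and Neurod6, the astrocyte gene Aqp4 and the microglial genes Cx3cr1 and P2ry12 held a peak in all 8 lists. A peak list holds no expression level, and other defining markers (Slc17a7, Camk2a and Gfap) had no peak in any list. Of 3 leukocyte markers Itgb2 held a peak, in 1 list, and of 5 genes of other organs 2 did, in 1 list each.

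A peak was taken as belonging to a gene when it shared at least 1 exonic base with it on the same strand, and peaks of different lists that shared at least 1 exonic base were joined into a region. The score of each peak has no stated scale, so it is given as its percentile, the percentage of peaks in the same list with a lower score. A region with more than 1 peak in a list was given the percentile of the highest-scoring of them. The 42 genes held 501 peaks over the 8 lists, which formed 138 regions. Of these, 16 regions had a peak in all 8 lists and 63 in 1 list only, that is 11.6% and 45.7%, against 9.72% and 51.1% of all 46370 regions. The number of these genes with a peak was 20 and 26 in Sham, 28 and 27 at 0 h, 24 and 25 at 6 h and 22 and 26 at 24 h. By this count both 0 h lists were highest and the other groups overlapped. As a share of the protein-coding genes with a peak, however, 0 h (0.392% and 0.337%) overlapped Sham (0.300% and 0.365%). Per 1000 protein-coding peaks of a list, their peaks numbered from 2.81, in 6 h replicate 1, to 3.93, in Sham replicate 2. Both 0 h lists (3.71 and 3.26) lay between the Sham lists (2.85 and 3.93). The median percentile of their peaks was 48.3 to 61.4 by list, against 51.3 to 52.1 for all protein-coding peaks.

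**Figure D1:**
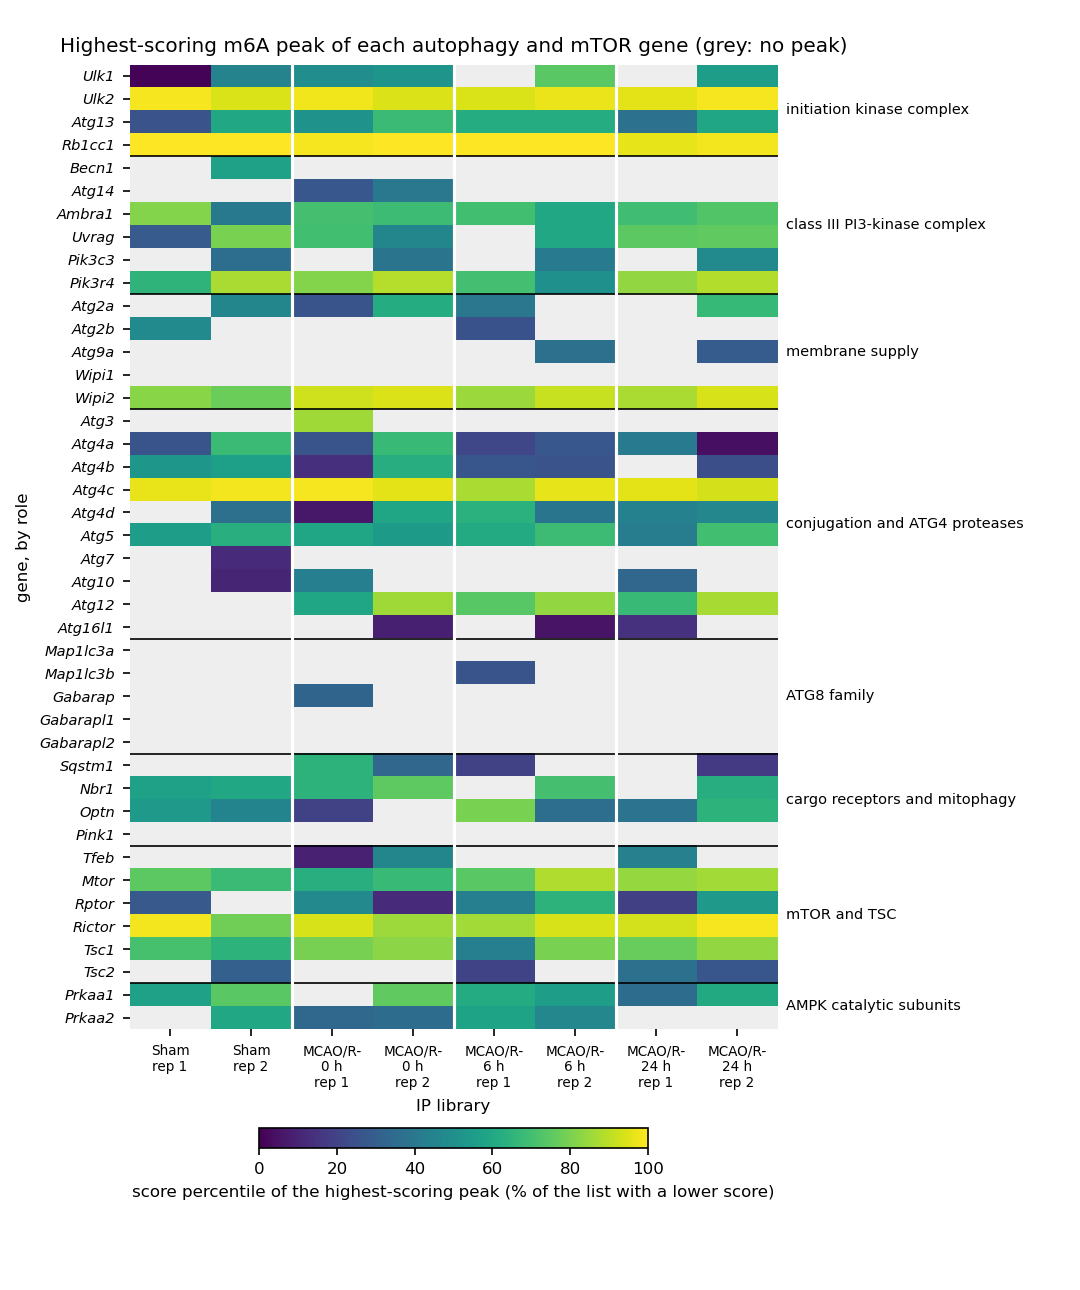
Score percentile (color, in %) of the highest-scoring m6A peak of each of the 42 genes (rows, by role) in each of the 8 IP libraries (columns, 2 per group); grey means no peak. Rb1cc1, Ulk2 and Atg4c are at the top of the scale in every list, the ATG8 family is almost empty, and Atg12 is grey in both Sham lists and filled in all 6 MCAO/R lists.

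The sequences that carry the main results are shown next, read from the reference genome GRCm39 on the strand of the gene, 5′ to 3′ (minus for Ulk2, plus for the other genes shown). Capitals mark the m6A consensus motif, RRACH, searched on the sense strand as a purine, a purine, A, C and then A, C or T, as in GGACT, so that neighbouring sites may overlap. The first set are coding stretches covered by the largest number of lists within a region: the Rb1cc1 stretch with the highest percentiles (chr1:6319884-6320008, exon 15), the Rb1cc1 stretch whose percentile was most separated by group (chr1:6318709-6318783, exon 15), the Atg4c stretch without a peak at 24 h (chr4:99106389-99109481, joined over 1 intron), the Ambra1 stretch with a peak in both 24 h lists and neither Sham list (chr2:91741779-91741853, exon 17) and the Rictor stretch that ranked lowest in Sham (chr15:6815992-6816066, exon 31).
Rb1cc1 exon 15, stretch A: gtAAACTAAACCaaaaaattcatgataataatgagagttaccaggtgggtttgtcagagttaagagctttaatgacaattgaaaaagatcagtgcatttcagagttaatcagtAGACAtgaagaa
Rb1cc1 exon 15, stretch B: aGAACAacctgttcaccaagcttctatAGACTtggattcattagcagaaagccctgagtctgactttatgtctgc
Atg4c coding stretch: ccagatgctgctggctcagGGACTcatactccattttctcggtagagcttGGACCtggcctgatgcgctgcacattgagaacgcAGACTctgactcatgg
Ambra1 exon 17: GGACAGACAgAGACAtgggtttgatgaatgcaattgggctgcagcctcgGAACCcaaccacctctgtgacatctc
Rictor exon 31: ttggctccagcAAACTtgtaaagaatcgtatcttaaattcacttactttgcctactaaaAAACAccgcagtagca

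The second set are windows of at most 30 bases around a motif in untranslated regions (UTRs) with a peak in 4 or more lists: the 3′ UTRs of Ulk2 (chr11:61668432-61668461), Wipi2 (chr5:142652826-142652855), Atg4c (chr4:99146910-99146939) and Mtor (chr4:148641569-148641598), and the 5′ UTR of Rb1cc1 (chr1:6284890-6284919).
Ulk2 3′ UTR: acatattgtagaAAACCtgccttattggag
Wipi2 3′ UTR: tggcagAGACTtaaagcagaggttgtagtt
Atg4c 3′ UTR: gcacacatttgaAAACAcctAGACTataaa
Mtor 3′ UTR: tggattttgggaGAACAgaagatgggtaac
Rb1cc1 5′ UTR: gtcgacaataacAAACCccacggcggccgc

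Of the 37 genes with a peak, 12 held one in all 8 lists, where 35.8% of the 11436 protein-coding genes with a peak did. These were Ulk2, Atg13, Rb1cc1, Ambra1, Pik3r4, Wipi2, Atg4a, Atg4c, Atg5, Mtor, Rictor and Tsc1. A further 20 held a peak in 2 to 7 lists, 5 in 1 list, and 5 in none. The 5 without a peak were Map1lc3a, Gabarapl1 and Gabarapl2 of the ATG8 family, the phosphoinositide-binding protein gene Wipi1 and the mitophagy kinase gene Pink1. Genes with a peak in more lists had longer transcripts. The median length of the transcript with the longest coding sequence was 1820 nt for the 5 genes in no list, 3498.5 nt for 14 genes in 1 to 4 lists, 6044 nt for 11 in 5 to 7 lists and 6125 nt for 12 in all 8, against 2009, 3084, 3796 and 4853.5 nt for protein-coding genes in the same classes. An internal exon of at least 400 nt was present in 0, 3, 3 and 5 of these genes, or 0%, 21.4%, 27.3% and 41.7%. Of protein-coding genes in the same classes, 9.63%, 14.6%, 23.0% and 35.2% had one, so the share rose in both.

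The initiation kinase complex starts autophagosome formation and was the most heavily marked role for its size, with 109 peaks in 4 genes. Rb1cc1 encodes FIP200, the large scaffold of this complex, and held 63 peaks, more than any other of the 42 genes. Of these, 47 lay in internal exons of at least 400 nt, in exon 7 and exon 15, the latter 1892 nt long. The region around stretch A (chr1:6319309-6320391) had percentiles of 99.8 and 99.7 in Sham, 98.7 and 99.9 at 0 h, 99.97 and 99.9 at 6 h and 95.5 and 98.2 at 24 h. Both 24 h lists were thus below every other list. The region of stretch B (chr1:6315683-6318908) stood at 82.8 and 86.7 in Sham, 96.5 and 96.1 at 0 h, 98.6 and 98.2 at 6 h and 96.1 and 91.2 at 24 h, so that both Sham lists were lowest. Between these, the region at chr1:6318984-6319183 had 94.2 and 95.8, 94.9 and 94.4, 97.2 and 97.4, and 85.4 and 92.6 in the same order, lowest at 24 h and highest at 6 h. A region in exon 7 (chr1:6308603-6310602, exon of 427 nt) had 86.8 and 96.0, 97.6 and 97.2, 98.5 and 98.7, and 91.1 and 95.3.

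The exonic length of Rb1cc1 covered by peaks separated the groups most clearly. It was 1625 and 1575 nt in Sham (1600 ± 35.4, SD, n = 2), 1903 and 2094 nt at 0 h (1998.5 ± 135), 2448 and 2428 nt at 6 h (2438 ± 14.1) and 1125 and 1465 nt at 24 h (1295 ± 240). The 4 groups did not overlap, in the order 24 h, Sham, 0 h, 6 h. The exact permutation test over the 105 divisions of the 8 libraries into 4 pairs gave p = 0.00952 for Rb1cc1, the smallest it can give, and an adjusted p of 0.765 by Benjamini-Hochberg over the 4090 genes tested. The adjusted p was 0.636 to 0.875 when each library was left out in turn, 0.729 with the higher-scoring 50% of each list and 0.740 with equal numbers of peaks, and the group means then kept this order. None of the 4090 genes passed an adjusted p of 0.05, and 5.57% had an unadjusted p under 0.05, as did 1 of the 12 autophagy and mTOR genes. Length and score are not independent, since higher-scoring peaks were longer (median 200 to 225 nt against 75 nt in each list). At its 5′ end, in the first exon of the 5′ UTR (chr1:6284830-6284944), Rb1cc1 held a peak of 115 nt in 0 h replicate 1 (percentile 69.6), both 6 h lists (69.7 and 75.1) and 24 h replicate 2 (80.7), and none in Sham.

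**Figure D2:**
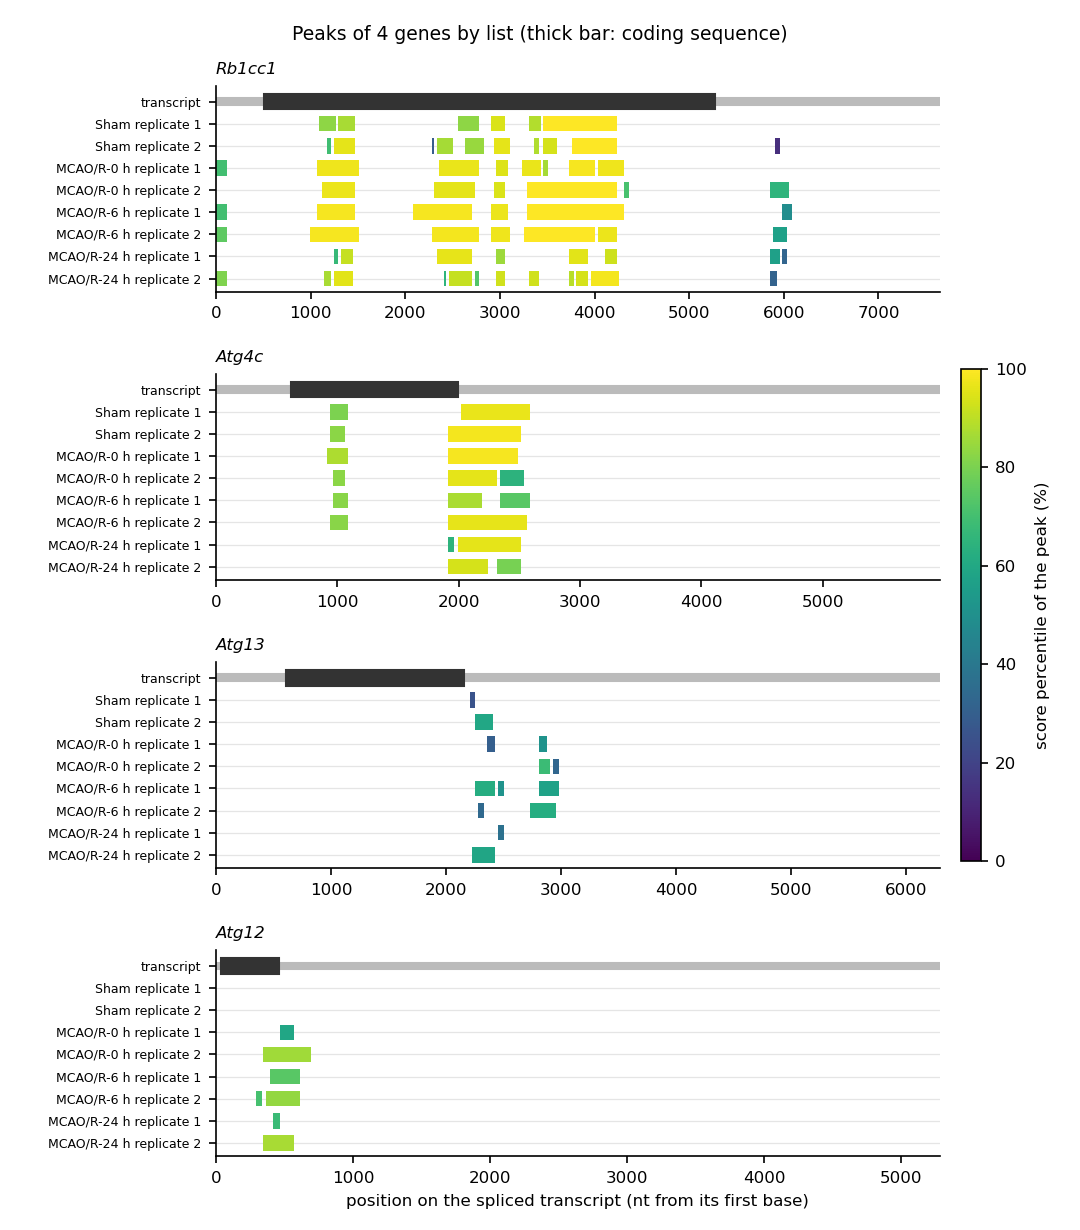
Peaks of Rb1cc1, Atg4c, Atg13 and Atg12 in each of the 8 lists (rows) along the spliced transcript (x axis, nt from its first base; thick dark bar, coding sequence), colored by score percentile (%). Rb1cc1 peaks are broadest in the MCAO/R-6 h lists, the Atg4c coding peak is missing from both MCAO/R-24 h lists, the downstream Atg13 peak is present in the lists of 0 h and 6 h only, and Atg12 has peaks in the 6 MCAO/R lists only.

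The other members of this complex were marked mainly in their 3′ UTRs. Ulk2, a kinase of the complex, had a region centred 185 nt after the start of its stop codon (chr11:61667950-61670608) with percentiles of 98.7 and 94.2 in Sham, 97.9 and 94.9 at 0 h, 94.5 and 97.0 at 6 h and 95.7 and 98.7 at 24 h. The groups overlapped, and the 250 nt shared by all 8 lists held 8 motifs. Ulk1, its close relative, held a peak in 6 lists, and its most frequent region lay 424 nt after the stop codon in 5 of them, at percentiles of 44.9 to 74.6. Atg13, the regulatory subunit, held a peak in all 8 lists but no single region common to all: 13 peaks, all in the 3′ UTR, fell into 3 regions. The most distal (chr2:91505913-91506162, 683 nt after the stop codon) was present in both 0 h lists (51.4 and 68.3) and both 6 h lists (57.5 and 62.1) and in no Sham or 24 h list. The nearest Atg13 peaks of the Sham lists were 475 and 325 nt away. The total marked length of Atg13 was 50 and 150 nt in Sham, 150 and 150 nt at 0 h, 400 and 275 nt at 6 h and 50 and 200 nt at 24 h, highest at 6 h (exact permutation p = 0.143, adjusted p = 0.772).

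The class III PI3-kinase complex makes the lipid that recruits later factors to the forming autophagosome. Its genes held 113 peaks, of which Pik3r4 and Ambra1 had 47 and 42. Pik3r4, the regulatory subunit VPS15, had a region in exon 2 (chr9:105521395-105521876) with percentiles of 51.3 and 78.4 in Sham, 81.4 and 63.2 at 0 h, 70.1 and 47.2 at 6 h and 84.0 and 83.9 at 24 h, the latter above every other list. A second region at its stop codon (chr9:105564322-105564821) had 65.2 and 51.0, 67.3 and 57.6, 65.5 and 49.9, and 62.5 and 88.6, with the groups overlapping. The region at chr9:105527568-105527767 was present in both Sham lists (9.65 and 71.0) and in 6 h replicate 2 (0.297) and 24 h replicate 1 (16.4). It had no peak at 0 h, but a Pik3r4 peak of 0 h replicate 2 directly adjoined it, and the nearest of replicate 1 was 300 nt away. The marked length of Pik3r4 was 575 and 875 nt, 857 and 950 nt, 725 and 700 nt, and 975 and 949 nt (exact permutation p = 0.276, adjusted p = 0.836). Ambra1, a scaffold that binds Beclin 1, had a region in exon 7, of 1457 nt (chr2:91603201-91604000), with percentiles of 81.5 and 36.6 in Sham, 69.0 and 61.0 at 0 h, 69.6 and 59.9 at 6 h and 69.2 and 72.7 at 24 h. The Sham lists were the highest and the lowest of the 8. The exon 17 stretch shown above, with 4 motifs in 75 nt, held a peak in 0 h replicate 1 (61.9) and in both 24 h lists (65.2 and 68.7) and in neither Sham list.

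Uvrag, which joins one form of the complex, held a peak in 7 lists, most often in the coding part of its last exon (7 lists, percentiles 28.8 to 79.7). Pik3c3, the lipid kinase VPS34 itself, was marked in 4 lists, all of replicate 2, at percentiles of 36.1 to 47.4. In its 3′ UTR, 275 nt after the stop codon, the peak was present in 1 list of each MCAO/R group. Atg14 held a peak in both 0 h lists (27.2 and 39.9), in different coding exons, and Becn1, the gene of Beclin 1, held a coding peak in Sham replicate 2 alone (57.3). Pik3c3, Atg14 and Becn1 thus had 4, 2 and 1 peaks, fewer than Pik3r4, Ambra1 or Uvrag (17 peaks).

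Among the genes of membrane supply, 1 of 5 was marked in every list. Wipi2, which binds the lipid made by the PI3-kinase and brings in the conjugation machinery, held its peak 125 nt after the stop codon (chr5:142652676-142652925) at percentiles of 82.2 and 77.3 in Sham, 92.6 and 94.7 at 0 h, 85.0 and 91.7 at 6 h and 87.2 and 93.8 at 24 h. Both Sham lists were below all 6 MCAO/R lists (exact permutation p = 0.105, adjusted p = 0.773 over 4508 regions). The marked length was 100 and 75 nt in Sham, 225 and 200 nt at 0 h, 100 and 125 nt at 6 h and 100 and 125 nt at 24 h, so that it was longest at 0 h (exact permutation p = 0.0857, adjusted p = 0.765). The lipid transfer protein genes Atg2a and Atg2b held a peak in 5 and 2 lists. Atg2a was marked around its stop codon in Sham replicate 2, both 0 h lists, 6 h replicate 1 and 24 h replicate 2, at 26.0 to 67.1. The scramblase gene Atg9a held 1 peak in each of 2 lists, and Wipi1, a relative of Wipi2, had none.

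The conjugation systems attach ATG12 to ATG5 and ATG8 proteins to lipid, and the ATG4 proteases trim and recycle ATG8 proteins. Atg12 was without a peak in Sham. In the MCAO/R lists, a region across its stop codon and the start of the 3′ UTR had percentiles of 59.0 and 85.8 at 0 h, 74.1 and 83.8 at 6 h and 67.8 and 86.9 at 24 h. Replicate 2 was the higher of each pair, and the region covered 100 and 350 nt, 225 and 250 nt, and 50 and 225 nt. Of the regions of the 42 genes, only this one was gained at all 3 times, by the rule defined with the counts by time. The 3 calls share the same Sham lists, and how many of all 46370 regions were gained at all 3 times was not counted. The part of Atg12 RNA abundance in these calls was not tested. Its partner Atg5 was marked in all 8 lists 302 nt after its stop codon (chr10:44239136-44239460), at 42.4 to 69.8, without separation by group. Atg16l1, which completes that complex, was marked in 3 lists at percentiles of 5.09 to 14.2. Of the enzymes, Atg7 and Atg3 held a peak in 1 list each, at 11.9 in Sham replicate 2 and at 85.6 in 0 h replicate 1, and Atg10 in 3 lists, at 10.5 to 43.3.

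The 4 ATG4 genes differed. Atg4c had the strongest marks: its region at the stop codon and the start of the 3′ UTR (chr4:99146724-99147398) had percentiles of 96.5 and 98.2 in Sham, 98.6 and 95.7 at 0 h, 87.5 and 96.1 at 6 h and 96.1 and 93.7 at 24 h. A second, coding region lay in exons 4 and 5 (chr4:99106339-99109506). It stood at 80.4 and 82.6 in Sham, 87.6 and 82.5 at 0 h and 82.4 and 82.4 at 6 h, and neither 24 h list held a peak there; the nearest Atg4c peak of both was 827 nt away. The marked length of Atg4c was 725 and 725 nt in Sham, 750 and 700 nt at 0 h, 650 and 800 nt at 6 h and 575 and 525 nt at 24 h, where both lists were lowest (exact permutation p = 0.143, adjusted p = 0.772). Atg4a was marked in all 8 lists near its stop codon at widely spread percentiles, from 3.94 in 24 h replicate 2 to 68.1 in Sham replicate 2. Atg4b and Atg4d held a peak in 7 lists each. The distal 3′ UTR region of Atg4b (chr1:93716480-93716679) was present in both Sham lists (31.5 and 56.3), both 0 h lists (13.3 and 27.1) and 6 h replicate 2 (25.7), and in neither 24 h list.

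ATG8 proteins coat the autophagosome and bind cargo receptors. Their 5 genes held 2 peaks in all 8 lists together, Map1lc3b (LC3B) in 6 h replicate 1 at 26.1 and Gabarap in 0 h replicate 1 at 32.2, both in coding sequence. Map1lc3a, Gabarapl1 and Gabarapl2 had none. Of the cargo receptors, Optn was marked in 7 lists, mostly in coding sequence (12 of 13 peaks), and its most frequent region was held by 5 lists, at 36.3 to 71.0. Nbr1 held a peak in 6 lists. Its region 162 nt after the stop codon (chr11:101471707-101471806) was present in both 0 h lists (45.9 and 60.7) and 24 h replicate 2 (62.1), but Sham replicate 2 held a peak 75 nt away. Sqstm1, the gene of p62, held a peak in 4 lists, none of them of Sham, including 24 h replicate 2 (16.9). A region in a 3′ UTR of Sqstm1 (chr11:50090518-50090792) was present in both 0 h lists (64.8 and 32.9) and in 6 h replicate 1 (19.4). It belongs to a transcript other than the one with the longest coding sequence.

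mTOR works in 2 complexes, and TSC1 and TSC2 form the brake on the first of them. Mtor has a coding sequence of 7650 nt, but 19 of its 22 peaks lay in a 3′ UTR, among them 2 in that of a shorter transcript. The region 279 nt after the stop codon (chr4:148641357-148641706) had percentiles of 74.9 and 68.2 in Sham, 42.7 and 67.9 at 0 h, 74.5 and 88.2 at 6 h and 84.2 and 86.1 at 24 h. Both 0 h lists were below Sham, in replicate 2 by little, and both 24 h lists above it (exact permutation p = 0.105, adjusted p = 0.773). A second region at 729 nt stood at 49.6 to 70.8 with the groups overlapping. Rictor, which defines the second complex, had 42 peaks. Its region in exon 31, of 1006 nt (chr15:6815942-6816691), had percentiles of 52.1 and 38.9 in Sham, 86.0 and 75.2 at 0 h, 68.8 and 94.0 at 6 h and 61.8 and 60.3 at 24 h. Both Sham lists were below all others (exact permutation p = 0.0667, adjusted p = 0.742). Its 3′ UTR region (chr15:6825501-6826702) stood higher, at 98.2 and 78.3, 93.8 and 85.2, 86.3 and 88.9, and 93.2 and 98.5, with the groups overlapping, and the 150 nt shared by all lists held no motif.

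Rptor, which defines the first complex, was marked in 7 lists. Its 3′ UTR held 8 of its 12 peaks. A coding region of 44 nt in Rptor was present in both 0 h lists (12.3 and 12.2) and 6 h replicate 2 (29.97), all in the lower part of their lists. Tsc1 held a peak in all 8 lists and 31 peaks in 13 regions, most often just before its stop codon (chr2:28576897-28577296, 7 lists, 61.4 to 83.8). Tsc2 held a peak in 4 lists, and its 3′ UTR region (chr17:24814940-24815064) was present in 6 h replicate 1 (20.6) and both 24 h lists (36.9 and 26.9). Tfeb, the transcription factor for lysosomal and autophagy genes that mTOR restrains, held a peak in 3 lists and none in Sham. Its 3′ UTR region (chr17:48102851-48103075) was present in both 0 h lists (9.25 and 45.9) and 24 h replicate 1 (43.6). Of the AMPK subunits, which sense low energy, Prkaa1 was marked in 7 lists, most often in a coding region that reaches exon 7 (6 lists, 35.2 to 75.5), and Prkaa2 in 5, with a highest percentile per list of 33.7 to 59.8 and no peak in either 24 h list.

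**Figure D3:**
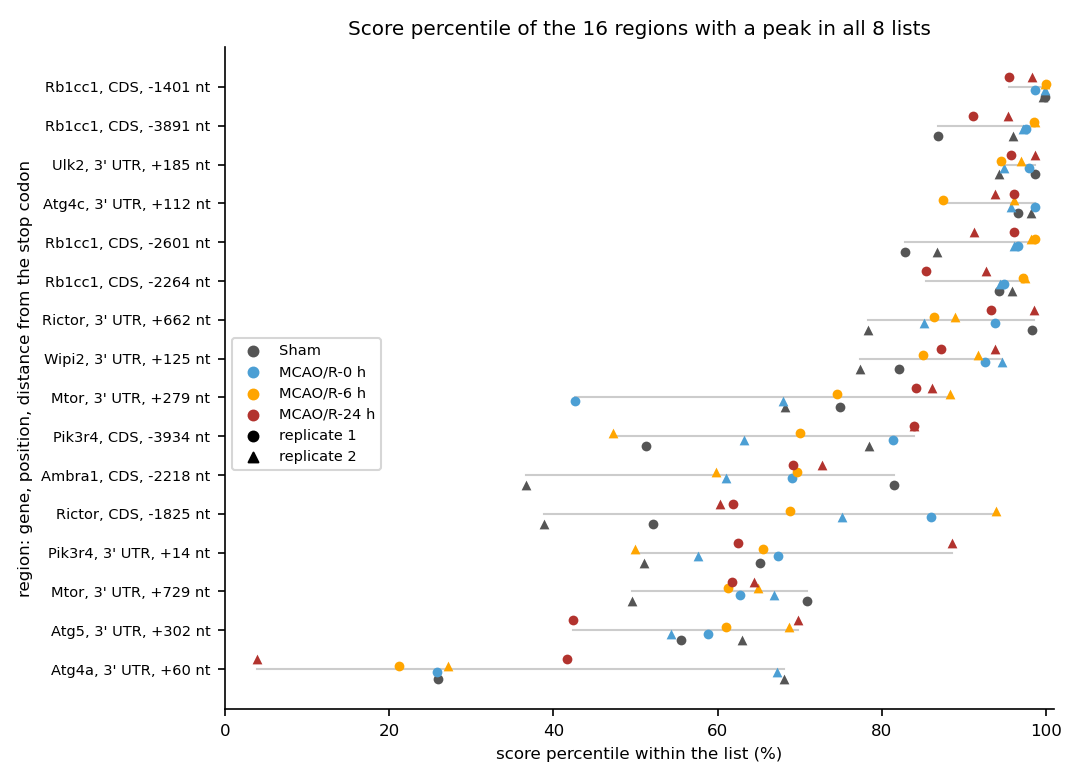
Score percentile within the list (x axis, %) of the 16 regions with a peak in all 8 lists (rows: gene, position and distance of the most shared stretch from the stop codon in nt); colors are groups, circles and triangles are replicates 1 and 2, grey lines span the 8 lists. The Rb1cc1, Ulk2 and Atg4c regions lie between 82.8 and 99.97, whereas Atg4a spans 3.94 to 68.1.

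Which regions appeared or disappeared against Sham was counted without a test, since 2 libraries against 2 allow 3 splits and no p below 0.333. A region was called gained when both lists of a time and neither Sham list held it, and lost in the opposite case, among regions held by at least 2 of those 4 lists. These counts rest on single lists: leaving out 1 list gave up to 22 gained or lost regions at a time. At 0 h, 6 of 51 regions of the 42 genes were gained (Atg12, Atg13, Sqstm1, Nbr1, Rptor and Tfeb), or 11.8%, where 8.17% of all 14829 regions were. There, 1 of 51 was lost (Pik3r4), or 1.96%, where 4.19% of all were. At 6 h, 3 of 48 were gained (Atg12, Atg13 and Rb1cc1), or 6.25% against 10.6% of all 15088, and 0 were lost against 4.48%. At 24 h, 3 of 43 were gained (Atg12, Ambra1 and Tsc2), or 6.98% against 8.25% of all 14066, and 2 were lost (Atg4b and Atg4c), or 4.65% against 6.44%. With so few regions these shares are near the background, and the 3 times share the same Sham lists. Both Sham lists are shorter than both 6 h lists; with every list shortened to its 18775 highest-scoring peaks, 5, 3 and 3 regions were gained at 0, 6 and 24 h.

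In the 16 regions present in every list, the percentiles were compared among the 4 groups by the same exact permutation test over 105 divisions, with adjustment over all 4508 regions in 8 lists. An unadjusted p under 0.05 was found for 2 of the 16, both in exon 15 of Rb1cc1, where 6.37% of all regions had one. These were the region of stretch B (exact permutation p = 0.0190, adjusted p = 0.728) and the region between the stretches (exact permutation p = 0.0286, adjusted p = 0.728). Next were Rictor exon 31, the Rb1cc1 region of stretch A (exact permutation p = 0.0762, adjusted p = 0.762) and, with equal p, the Wipi2 region and the Mtor region nearer to the stop codon. Leaving out 1 list gave 0 to 2 regions of these genes with such a p, and 0 without Sham replicate 1, either list of 0 h or replicate 2 of 6 h. No region passed after adjustment, and the smallest adjusted p of all was 0.704. The adjusted exact permutation p of the 16 regions ran from 0.728 to 0.988, and the differences between groups given for single regions above stand as values of these libraries only.

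**Figure D4:**
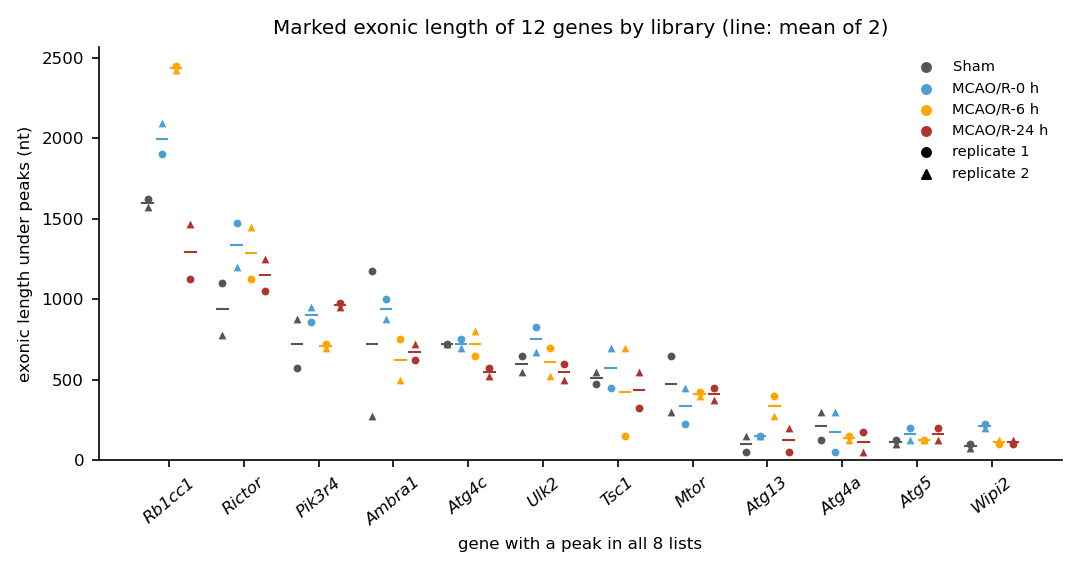
Exonic length under peaks (y axis, nt, from 0) of the 12 genes with a peak in all 8 lists; points are libraries, colors are groups, short lines are means of 2. Rb1cc1 runs from 1125 nt (MCAO/R-24 h) to 2448 nt (MCAO/R-6 h) with no overlap of groups, while the other genes overlap in at least 1 pair of groups.

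Along the transcripts, the peaks of the 42 genes lay more in 3′ UTRs and less in coding sequence than peaks in general. In the 8 lists, 46.1% ± 4.18 (SD, n = 8 lists) of their peaks lay in 3′ UTRs against 36.1% ± 1.38 of all protein-coding peaks, and 52.4% ± 4.53 in coding sequence against 58.3% ± 1.46. The ranges did not overlap for the 3′ UTR (42.0 to 53.5% against 34.3 to 38.2%) and overlapped for the coding sequence. These SDs and ranges are over lists that mark many of the same genes, so they do not measure spread between genes. Transcript length was not matched. The share within 200 nt of the stop codon was 24.3% ± 3.27 against 20.4% ± 0.394, with overlapping ranges (19.7 to 29.1% against 19.6 to 20.8%). In 5′ UTRs lay 1.52% ± 1.17 against 5.57% ± 0.386, without overlap (0 to 3.23% against 4.85 to 5.97%). Internal exons of at least 400 nt held 27.1% ± 2.88 against 18.5% ± 0.454, without overlap of the ranges. Most of this came from a few genes: Rb1cc1, Ambra1, Rictor and Pik3r4 held 118 of the 133 peaks in such exons. Between groups, the share of these genes' peaks in 3′ UTRs was 44.3% ± 3.24 in Sham, 48.1% ± 7.69 at 0 h, 48.2% ± 3.74 at 6 h and 43.7% ± 2.02 at 24 h (n = 2 each), and the groups overlapped.

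**Figure D5:**
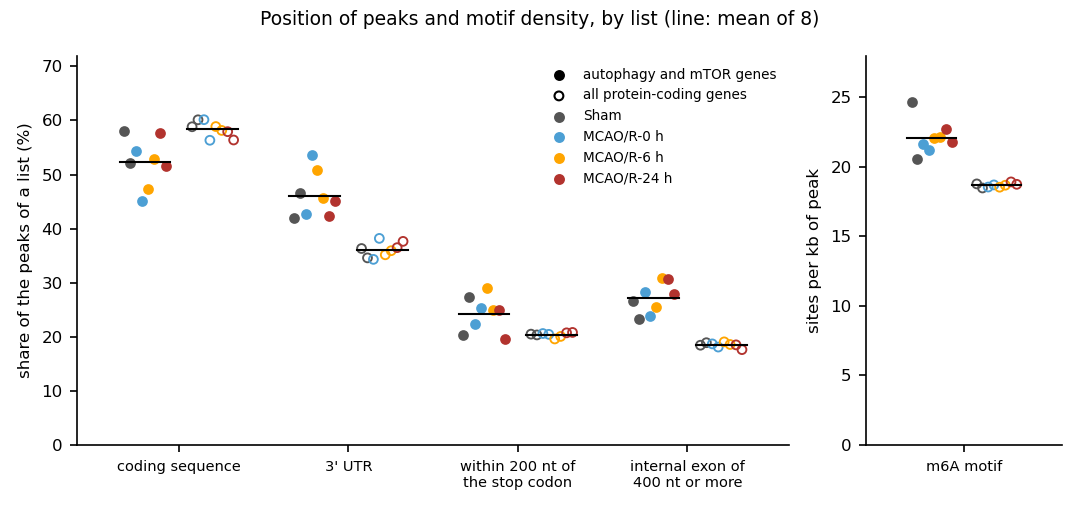
Share of peaks (left, %) in coding sequence, 3′ UTR, within 200 nt of the stop codon and in internal exons of 400 nt or more, and motif density (right, sites per kb), for the 42 genes (filled) and all protein-coding genes (open); each point is 1 of 8 lists, colored by group, lines are means. The filled points for the 3′ UTR, long internal exons and motif density lie above all open ones.

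The m6A motif was denser in the peaks of these genes. It occurred 22.1 ± 1.20 times per kb of peak (SD, n = 8 lists), from 20.6 to 24.6, against 18.7 ± 0.145 for all protein-coding peaks, from 18.5 to 18.9. The narrower word GGACT occurred 2.16 ± 0.271 times per kb against 1.52 ± 0.0322. Among peaks of exactly 100 nt, 96.2% of 52 peaks of the 42 genes held a motif, where 83.0% of 14089 peaks of all protein-coding genes did. At 50 nt the shares were 61.5% of 96 and 55.5% of 32633, at 75 nt 81.4% of 59 and 71.97% of 20503, and at 125 nt 96.4% of 55 and 89.5% of 10485. On the exons of the 37 marked genes, motif density was 20.1 per kb inside a peak of any list and 14.5 per kb outside every peak. These are descriptions, since peaks of 1 gene and of different lists share sequence.

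Other genes of the same pathways, 68 in number and on a list separate from the 42, gave a comparison. Of all protein-coding genes, 18.8% held a peak in all 8 lists and 47.5% in none. Of the 68, 21 held one in all 8 lists, 36 in 1 to 7 and 11 in none. Among those with the highest median percentile in a region held by all lists were Rps6kb1, the mTOR target kinase S6K1 (97.5 to 99.7), Fnip1, a partner of folliculin (95.1 to 99.2), Rragc, a Rag GTPase (87.3 to 93.7), and the mitophagy receptor gene Fundc1 (74.0 to 95.7). Of the 19 regions of these 68 genes in all lists, 0 had an unadjusted p under 0.05 in the exact permutation test. Of all 4508 regions in all lists, 6.37% had one. Gained regions numbered 4 of 67 at 0 h (Calcoco1, Prr5l, Rragc and Nprl3), 2 of 71 at 6 h (Sesn2 and Wdfy3) and 4 of 63 at 24 h (Sesn2, Mlst8, Epg5 and Zfyve26), that is 5.97%, 2.82% and 6.35%, where 8.17%, 10.6% and 8.25% of all regions were. Lost regions numbered 3 of 67 at 0 h (Rubcn, Rragd and Snap29), 6 of 71 at 6 h (Rubcn, Rragd, Snap29, Fnip2, Prkag2 and Epg5) and 6 of 63 at 24 h (Rubcn with 2 regions, Rragd, Fnip2, Prkag2 and Wdfy3), that is 4.48%, 8.45% and 9.52%, where 4.19%, 4.48% and 6.44% of all regions were. These counts are small, and the values of 3 of these genes, chosen after they were seen, are given as a description. Rubcn, the gene of Rubicon, a brake on the PI3-kinase complex, had a coding region in both Sham lists (48.7 and 66.9) and in no MCAO/R list, and so did Rragd, a Rag GTPase, in its 3′ UTR (41.0 and 66.1). Sesn2, a stress-induced inhibitor of mTOR complex 1, showed the opposite at the later times, with a 3′ UTR region in both 6 h lists (70.0 and 43.9) and both 24 h lists (68.8 and 63.4) only. These are single regions: counting all regions of a gene, Sesn2 held a peak in all 8 lists, Rubcn in 6 and Rragd in 3.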

How the data were processed

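MeRIP-seq pulls down RNA fragments that carry m6A with an antibody and sequences them beside an input. The authors trimmed reads with Trim Galore, aligned them to GRCm39 with HISAT2 and kept uniquely mapped reads with samtools. Peaks came from exomePeak2 (p cutoff 0.05, log2 fold change cutoff 0.5). They deposited 1 peak list per IP library, in which each peak has a score on a scale not given in the sources used here. The study reports far fewer confident peaks per sample than these lists hold, and how those relate to the lists is not stated. It is also not stated whether replicates were pooled for a call. The lists hold no counts, so depth is unknown, and the 2 libraries per group give the precision. RNA was fragmented to about 200 nt per the labels and to about 100 nt per the study's methods, which limits the resolution.

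Peaks were placed on the exons of basic protein-coding transcripts of GENCODE M39 (GRCm39) without readthrough, matching strand, where they shared 1 exonic base or more. Position and distance from the stop codon refer to the transcript with the longest coding sequence where the region lies on it. Percentiles and marked lengths were compared among the 4 groups by an exact permutation test over 105 divisions, one-sided towards a larger sum of squares between groups, with Benjamini-Hochberg adjustment over all regions or genes in all 8 lists. The steps were tested on simulated data. Alternatives were leaving out each list, the higher-scoring 50% of each list, equal numbers of peaks (18775), other overlaps and windows, and permutation within replicate numbers.

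Every gene is named with its number of lists, and values per list are given for the 8 genes whose region in all lists had the highest median percentile, for all gained or lost regions, and for the 5 regions and 5 genes with the smallest p. The genes and lists were chosen with earlier results of these data known. Sequences from chromosome 18 are not printed. A few genes of the marker and comparison lists are not reported here by name. Python 3.11.15, numpy 2.4.6, scipy 1.17.1 and matplotlib 3.10.9 were used.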

Additional observations from a re-analysis of the deposited data

Results flagged for a closer look

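Among the 16 regions and 12 genes held by all 8 lists, 3 regions and the marked length of 1 gene showed the following pattern. Every library of one time lay above both Sham libraries and every library of another time below both. These differences between times were not tested on their own. How many of all regions and genes show such a pattern was not counted, so it is given as a description only. In Rb1cc1 the pattern held for the exonic length under peaks. Its group means differed by 703.5 nt between MCAO/R-0 h (above Sham) and MCAO/R-24 h (below Sham). Between MCAO/R-6 h (above) and MCAO/R-24 h (below) they differed by 1143 nt. It also held for the score percentile of 2 of its exon 15 regions, by 8.29 percentage points for the region between the stretches shown above and by 3.08 for that of stretch A, each with MCAO/R-6 h above and MCAO/R-24 h below Sham. In the Mtor 3′ UTR region nearer to the stop codon, MCAO/R-24 h was above and MCAO/R-0 h below Sham, and the means differed by 29.8 percentage points.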

How the results depend on the processing

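With each list left out in turn, the genes with a peak in all lists numbered 12 to 13, those with a peak in any list 35 to 37 and the regions in all lists 16 to 18. The presence calls moved most, since a side then rests on 1 list. At 0 h they ranged from 6 to 22 gained and from 1 to 20 lost, at 6 h from 3 to 20 gained and from 0 to 19 lost, and at 24 h from 3 to 16 gained and from 2 to 22 lost. Gained counts were highest without a list of that time (22 without either at 0 h, 20 and 12 without replicate 1 and 2 at 6 h, 16 and 13 at 24 h) and lost counts without a Sham list (20 and 14 without replicate 1 and 2 at 0 h, 19 and 13 at 6 h, 22 and 19 at 24 h). Regions with an unadjusted p under 0.05 for the percentile ranged from 0 to 2, with 0 without Sham replicate 1, either MCAO/R-0 h list or MCAO/R-6 h replicate 2 and 1 without MCAO/R-6 h replicate 1. Genes with such a p for the marked length ranged from 1 to 2, with 2 without Sham replicate 2 or either MCAO/R-6 h list.

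With the higher-scoring 50% of each list, 7 genes and 8 regions remained in all lists, and 3 regions were gained and 0 lost at 0 h. With equal numbers of peaks, 1 region was lost at 6 h. With the mean score of a region's peaks, 1 region had an unadjusted p under 0.05. A window of 400 nt around the stop codon held 38.5% of the peaks, and GGACT occurred 2.16 times per kb, both by construction. Joining peaks up to 100 nt apart, chosen after seeing the data, gave 5 gained regions at 0 h and 15 regions in all lists. No region and no gene passed adjustment under any setting run for these tests.

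Replicate numbers were not taken to pair the libraries, since deviations from the group means correlated at 0.0367 to 0.102 over 6 pairs of groups. Replicate 2 nevertheless had more peaks than replicate 1 in every group, and a part of the replicate number in presence was not tested. With the replicate block, permuting within replicate numbers over 24 divisions, 2 regions and 1 gene had an unadjusted p under 0.05, and 0 passed adjustment. The gene was Rb1cc1 in both fits, but the regions were the Rb1cc1 region of stretch B (exact permutation p = 0.0417, the smallest this fit can give) and Wipi2 (exact permutation p = 0.0417), while the Rb1cc1 region between the stretches had an exact permutation p of 0.0833. Over all regions 287 had such a p, and over all genes 171.

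The score has no stated scale, presence in a list is all or none, and a permutation of 2 libraries against 2 cannot go below p = 0.333, so no such test of 1 time against Sham was made. RNA abundance was not analysed here, so its part in the presence of a peak was not tested.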
